A study of Mus musculus with 6 samples.

Results

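Mitosis and spindle genes were followed in LSKs, the lineage-negative, Sca-1+ and c-Kit+ bone marrow cells that hold the hematopoietic stem and early progenitor cells. The set was 45 genes picked by name for their work in cell division, and all 45 were found among the 55487 rows of the deposited count table. All 45 also passed the filter on low counts, so every one of them was among the 15332 genes tested. RNA was sequenced from LSKs of irradiated wild-type littermates (Tespa1+/+, 3 libraries) and of irradiated Tespa1-/- mice (3 libraries). Per the study's methods the mice were males aged 8 to 10 weeks, and the LSKs were taken at day 13 after irradiation. Those methods describe irradiation of the total body at a sublethal dose. Tespa1-/- mice carry a germline B6.129S-Tespa1tm1Smoc allele backcrossed to C57BL/6, so the gene was lost in every cell type and not in LSKs alone. No unirradiated libraries were used here. The sources do not say if each replicate came from 1 animal or from several, so p-values measure only the spread between these libraries, which may be technical.

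During mitosis the cyclin B-Cdk1 kinase drives entry, the spindle built by kinesins and other microtubule proteins captures chromosomes at their kinetochores, and the spindle checkpoint holds back anaphase until every chromosome is attached. Cdc20 then switches on the anaphase-promoting complex, securin and cyclin B are destroyed, separase cuts cohesin, and the midzone proteins complete cytokinesis. Many of these genes are transcribed together late in the cell cycle through promoters that hold CCAAT boxes, bound by NF-Y, and a cell cycle homology region (CHR), bound by MuvB complexes with MYBL2 or FOXM1. Stem cells of the marrow divide rarely at rest and are driven into the cycle when the marrow is depleted.

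Total counts ranged from 12856630 to 30576981 per library. Tespa1 itself, the targeted gene, was read at 34.4, 32.7 and 35.9 CPM in the wild-type libraries and at 15.3, 14.2 and 14.2 CPM in the Tespa1-/- libraries, where CPM stands for TMM-scaled counts at equal library totals. It was lower in all 3 Tespa1-/- libraries, by 57.5% (log2 fold change -1.23 ± 0.07 SE, edgeR adjusted p = 7.0e-06), although counts of 176 to 261 remained there. Markers of the sorted cells fell: 7 of 8 LSK markers were lower in Tespa1-/- cells at an adjusted p under 0.05. Over all genes tested 31.8% were lower and 31.5% higher by that rule, which also holds for the marker counts below. The summed level of the LSK markers was 1260 to 1291 CPM in wild type and 725 to 745 CPM in Tespa1-/-. Kit and Flt3, 2 growth factor receptors of these cells, were among those that fell. Ly6a, which encodes Sca-1, had a log2 fold change of -0.32 that did not pass the test, but it was lower after the length correction described below (-0.56, adjusted p = 0.0159). All 5 primary granule markers were higher, with summed levels of 10890 to 11620 against 17930 to 18750 CPM. Of 12 neutrophil markers, 11 were tested and 11 were higher, with summed levels of 23.1 to 25.7 against 496 to 524 CPM, and Ly6g and Retnlg were at or under 3 counts in every wild-type library. Summed levels in wild type and Tespa1-/- ran from 923 to 963 and from 1012 to 1086 CPM for 6 monocyte and macrophage markers, and from 33.3 to 35.4 and from 41.1 to 43.7 CPM for 8 erythroid markers. They ran from 63.6 to 68.0 and from 41.1 to 45.1 CPM for 8 B cell markers, and from 3.17 to 3.35 and from 1.37 to 1.58 CPM for 5 T cell markers, with Cd3e at or under 3 counts in every Tespa1-/- library. Single markers did not all follow these sums. Of 6 monocyte and macrophage markers 2 were higher and 2 lower, and of 6 erythroid markers tested 3 were higher and 3 lower. Of 8 B cell markers 1 was higher and 6 were lower, and of 2 T cell markers tested 2 were lower. These marker levels moved with the genotype in the same libraries as every result that follows, and their part in those results was not tested. In bulk RNA, fewer cells of a type and less RNA per cell cannot be told apart.

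Mitosis and spindle genes went in both directions before the length correction described below, and after it 34 of the 45 were higher and 3 lower. The values of this paragraph are those before it. With the adjusted p held under 0.05, 21 of the 45 genes were higher in Tespa1-/- (46.7%, against 31.5% of all genes tested) and 13 were lower (28.9%, against 31.8%), while 11 did not pass. Over all genes tested 63.3% passed in one direction or the other. With libraries scaled by total count alone, in place of TMM, the split was 14 higher and 15 lower, since that scaling moved the median of all genes to -0.10 on the log2 scale. The median log2 fold change was 0.14 over the 45 genes and 0.00 over all genes tested, and single genes ranged from -0.72 (Mki67) to 0.66 (Plk1). Most changes were under 1.5-fold: 3 members were higher by more than 1.5-fold (Plk1, Spc24 and Aurka, against 14.0% of all genes) and 2 were lower by more than 1.5-fold (Mki67 and Espl1, against 19.2%). Summed over the 45 genes, the level was 5607 to 5664 CPM in wild type and 5479 to 5551 CPM in Tespa1-/-, a ratio of 0.979, and Mki67 and Top2a, which had the most CPM, were among the genes that were lower before the length correction. Levels of 24 members lay above and of 13 members below every wild-type library in all 3 Tespa1-/- libraries, against 34.5% and 34.6% of all genes (69.1% together).

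**Figure D1:**
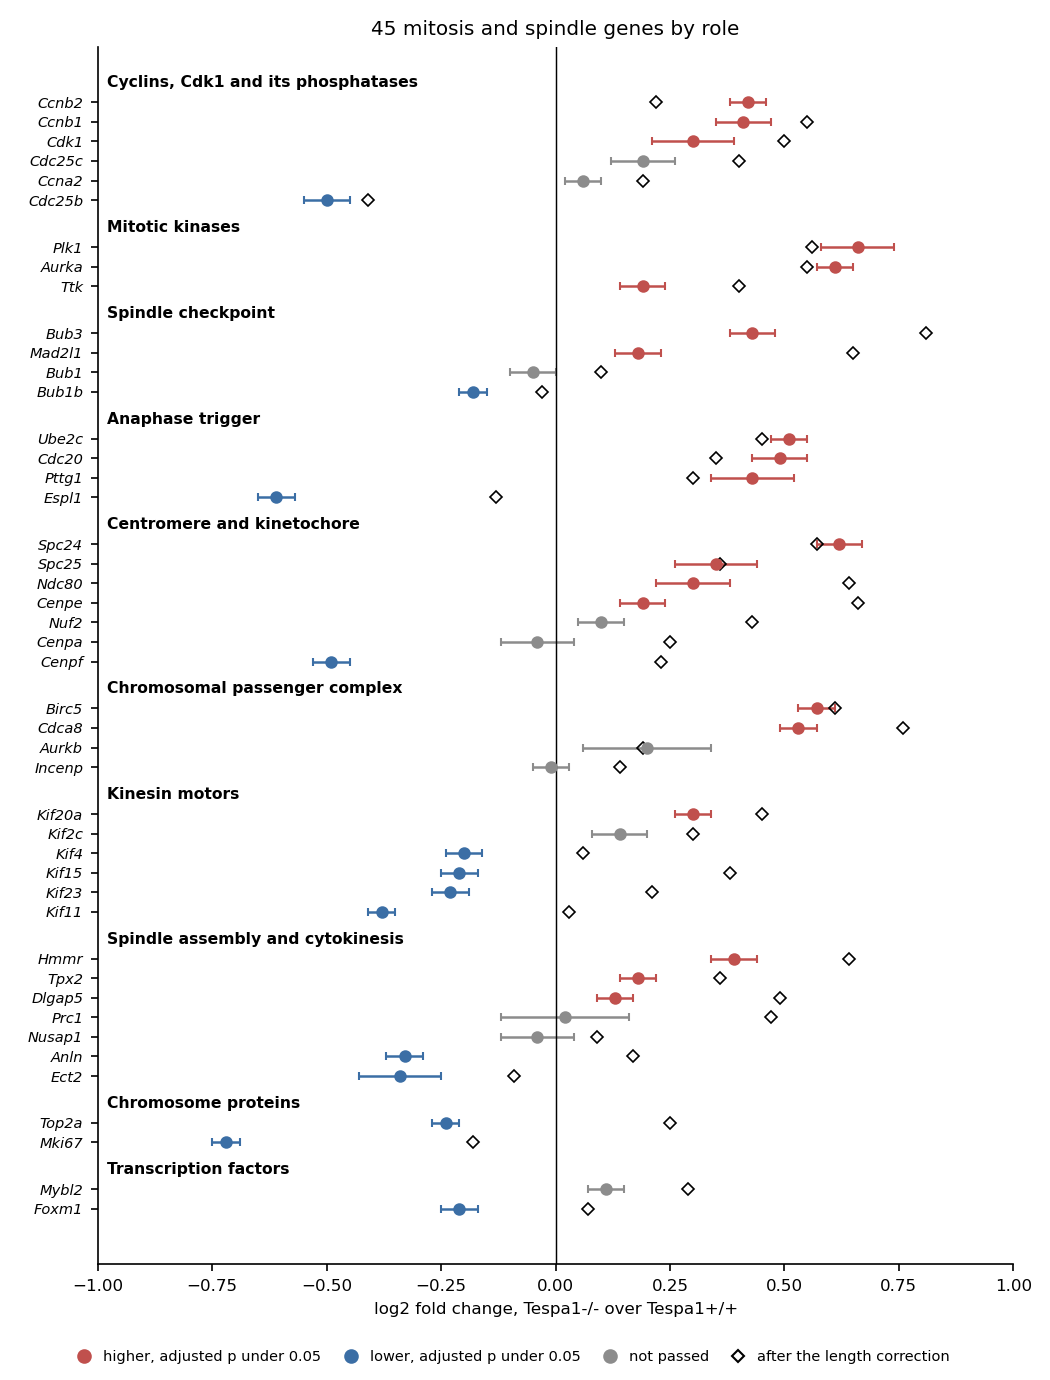
Log2 fold changes of the 45 mitosis and spindle genes, Tespa1-/- over Tespa1+/+, grouped by role. Filled points are edgeR estimates after TMM scaling with SE bars (3 libraries per group), coloured by the call, and open diamonds are the same genes after the length correction: 21 points are called higher and 13 lower before it, 34 and 3 after it.

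Long and short genes of the set parted. Across the 45 genes the log2 fold change fell with union exon length, the number of bases in any annotated exon (Spearman's rho -0.628 over 45 genes that share the same 6 libraries, a description across genes). A like value was found across the 10025 tested genes with a mean log2 CPM above 3 (rho -0.617). Among the 11 members shorter than 4000 bases the median log2 fold change was 0.49, with 9 higher (81.8%) and 1 lower (9.09%). Over all 8292 tested genes of that length the median was 0.25, with 44.7% higher and 16.5% lower. The 22 members of 4000 to 7000 bases had a median of 0.12, with 9 higher (40.9%) and 4 lower (18.2%). All 4138 genes of that length had a median of -0.15, with 20.6% higher and 39.4% lower. In the 12 members of 7000 bases or more the median was -0.24, with 3 higher (25.0%) and 8 lower (66.7%). The 2890 genes of that length had a median of -0.48, with 9.1% higher and 64.7% lower. The share of these long members that fell was thus near that of all genes of like length. In each of the 3 length classes, chosen after the values were seen, the median of the members thus lay above that of all genes of like length.

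Since length moved with the direction, every value was also fitted with a smooth length trend removed. After this length correction 34 of the 45 genes were higher (75.6%, against 36.3% of all genes) and 3 were lower (6.67%, against 22.2%), and 8 did not pass, where 58.6% of all genes passed either way. Their median log2 fold change was then 0.35, or 0.24 above the median of all genes, which the correction itself moved to 0.11. All 21 genes that were higher before remained higher. Of the 13 that were lower before, 3 remained lower (Mki67, Espl1 and Cdc25b), 5 did not pass and 5 became higher (Cenpf, Kif15, Kif23, Anln and Top2a). A correction on the length of the principal transcript, added after the data were seen, gave 32 higher and 1 lower (Cdc25b), against 34.5% and 21.1% of all genes (55.7% together). A correction on the length implied by the deposited FPKM, also added later, gave 32 higher and 6 lower (Mki67, Espl1, Cdc25b, Bub1b, Kif11 and Kif4), against 36.7% and 23.5% of all genes (60.2% together). Below, "the length correction" is the one on union exon length unless another is named.

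**Figure D2:**
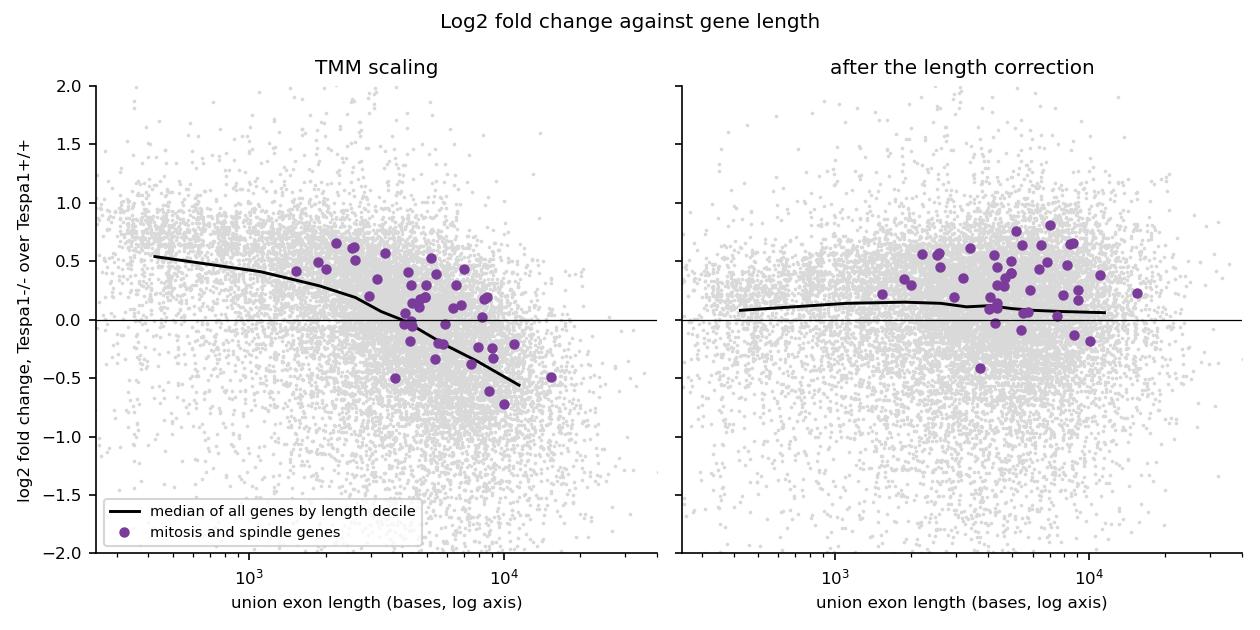
Log2 fold change (Tespa1-/- over Tespa1+/+) against union exon length on a log axis, for all genes tested (grey, shown between -2 and 2) and for the 45 mitosis and spindle genes (purple), before (left) and after (right) the length correction. The black line joins the medians of length deciles of all genes: it falls with length on the left, where members have a rho of -0.628, and is nearly flat on the right, where their rho is -0.0541.

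Promoter letters were read next, to see how far these genes share the cell cycle motifs. RefSeq promoter windows of the mouse build GRCm38.p6, each of 250 bases before and 50 bases after an annotated start, were at hand for 36 of the 45 members. The CHR hexamer, taken as TTTGAA and also, with 1 letter changed, as TTCGAA, was searched on both strands and found in 28 of these 36 windows (77.8%), in 14.3% of the windows of 9978 tested genes and in 19.4% of all 27025 genes with a window. CCAAT, on either strand, was found in 26 of the 36 windows (72.2%), against 39.4% of tested genes. Windows holding both made up 66.7% of the members and 6.24% of tested genes. In 26 of the 28 the CHR hexamer lay within 50 bases of the start, and 18 members held 2 or more CCAAT. A match is a run of letters and not a shown binding site, and the motif count says nothing of the factors' activity in these cells.

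Promoters of 6 genes are shown because they belong to the most abundant members with a CHR hexamer. Each run holds 250 bases before and 30 bases after the start, 5′ to 3′ on the strand of the gene, and capitals mark every CHR hexamer and every CCAAT, on whichever strand they read.
Top2a, chr11:99024160-99024439, minus strand: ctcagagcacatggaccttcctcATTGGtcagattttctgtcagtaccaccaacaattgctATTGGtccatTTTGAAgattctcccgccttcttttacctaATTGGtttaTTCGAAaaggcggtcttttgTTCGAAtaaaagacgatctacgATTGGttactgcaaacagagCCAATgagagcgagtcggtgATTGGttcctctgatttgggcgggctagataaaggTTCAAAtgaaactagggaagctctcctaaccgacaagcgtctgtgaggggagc
Mki67, chr7:135716350-135716629, minus strand: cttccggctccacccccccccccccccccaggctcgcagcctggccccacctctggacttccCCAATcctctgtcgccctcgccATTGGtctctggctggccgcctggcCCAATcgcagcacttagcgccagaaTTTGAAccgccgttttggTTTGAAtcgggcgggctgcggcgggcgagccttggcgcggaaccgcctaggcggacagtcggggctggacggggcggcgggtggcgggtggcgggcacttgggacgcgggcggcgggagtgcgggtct
Cdc20, chr4:118437314-118437593, minus strand: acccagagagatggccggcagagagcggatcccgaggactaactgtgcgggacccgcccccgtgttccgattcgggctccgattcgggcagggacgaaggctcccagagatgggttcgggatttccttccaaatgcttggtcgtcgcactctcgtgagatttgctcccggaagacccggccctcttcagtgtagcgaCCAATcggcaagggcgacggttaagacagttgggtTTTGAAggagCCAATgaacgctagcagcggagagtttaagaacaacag
Kif11, chr19:37376132-37376411, plus strand: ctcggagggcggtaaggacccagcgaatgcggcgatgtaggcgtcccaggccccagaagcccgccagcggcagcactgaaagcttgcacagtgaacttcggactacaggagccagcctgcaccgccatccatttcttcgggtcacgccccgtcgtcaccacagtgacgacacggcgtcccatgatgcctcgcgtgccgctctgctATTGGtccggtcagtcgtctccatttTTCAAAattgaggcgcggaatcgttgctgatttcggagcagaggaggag
Bub1b, chr2:118597961-118598240, plus strand: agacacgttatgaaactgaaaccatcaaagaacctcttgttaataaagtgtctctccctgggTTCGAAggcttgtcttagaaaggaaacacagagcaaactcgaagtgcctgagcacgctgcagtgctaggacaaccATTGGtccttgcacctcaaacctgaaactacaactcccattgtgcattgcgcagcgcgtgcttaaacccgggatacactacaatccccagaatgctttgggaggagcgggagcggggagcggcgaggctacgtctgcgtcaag
Cdca8, chr4:124936888-124937167, minus strand: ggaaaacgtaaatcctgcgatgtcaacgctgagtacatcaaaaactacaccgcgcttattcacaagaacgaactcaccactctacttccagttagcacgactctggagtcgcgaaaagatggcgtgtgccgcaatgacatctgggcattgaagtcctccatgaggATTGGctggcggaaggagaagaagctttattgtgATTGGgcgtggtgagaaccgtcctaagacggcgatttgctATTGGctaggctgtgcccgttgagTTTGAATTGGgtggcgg
In Cdc20 and Kif11 the hexamer began 18 and 19 bases before the start. Top2a held 4 hexamers and 6 CCAAT, and in Mki67 the 2 hexamers lay 116 and 98 bases before the start. Bub1b had a second hexamer 41 bases after the start, past the stretch shown, and in Cdca8 a hexamer and a CCAAT on the other strand overlap and read as 1 run of capitals. Genes with a CHR hexamer went both ways: of the 28 members with a CHR hexamer 12 were higher and 12 lower (median log2 fold change -0.01, and 0.27 after the length correction), whereas of the 8 members without one 5 were higher and 0 lower (0.18, and 0.49 after correction). No test was made of that difference. The calls are those before the length correction, where 31.5% of all genes tested were higher and 31.8% lower. Among the 6 promoters shown, those of Cdc20 and Cdca8 belong to genes that were higher. Those of Top2a, Mki67, Kif11 and Bub1b belong to genes that were lower before the length correction. Of these Mki67 alone stayed lower after it (Mki67, Kif11 and Bub1b with FPKM-implied length). With principal transcript length none of them stayed lower: Mki67 (0.13) and Top2a (0.22) were higher, and Kif11 and Bub1b did not pass.

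**Figure D3:**
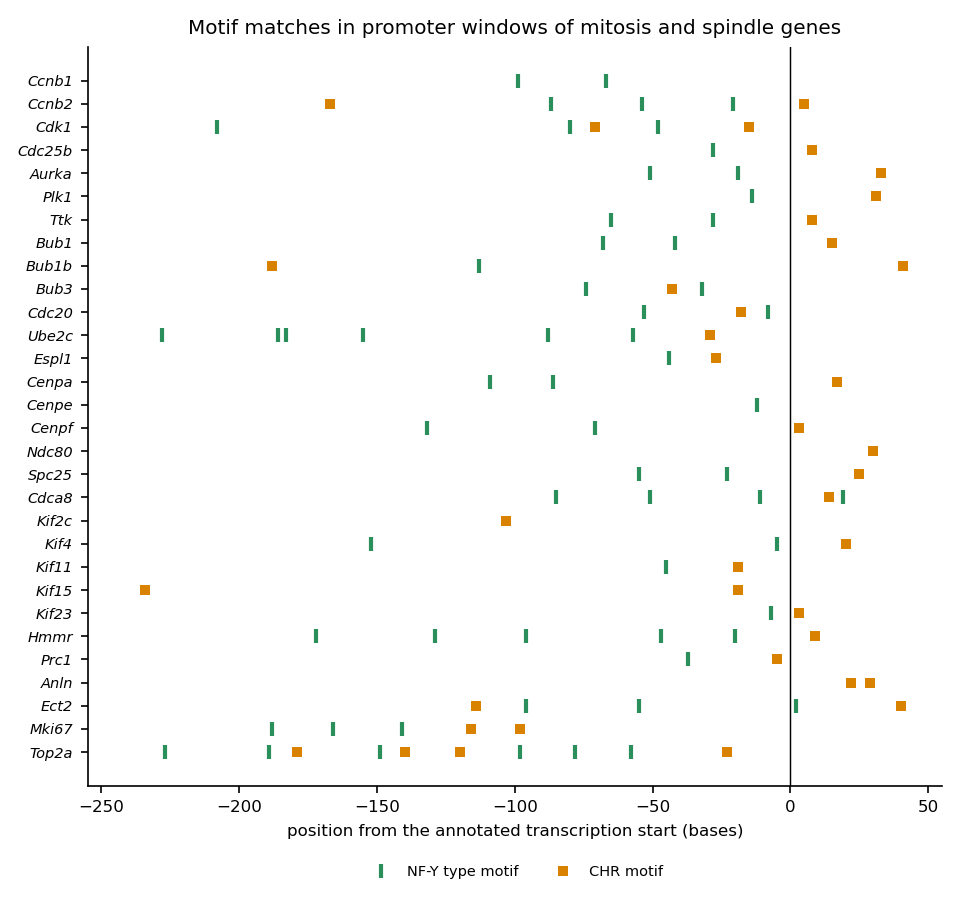
Positions of the CHR hexamer (orange squares) and of the CCAAT box bound by NF-Y (green bars) in the RefSeq promoter windows of the members that hold either, in bases from the annotated start. In 26 members an orange square lies within 50 bases of the start, and 18 members have 2 or more green bars.

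Chromosome proteins included the most abundant transcripts of the set, and both fell before the length correction, as did 31.8% of all genes tested. Mki67 (ENSMUSG00000031004, GRCm38 chr7:135689784-135716361, minus strand), which encodes the Ki-67 protein that coats mitotic chromosomes and marks cycling cells, was read at 815, 820 and 825 CPM in wild type and at 514, 490 and 485 CPM in Tespa1-/-. Every Tespa1-/- library lay far below every wild-type library. The log2 fold change was -0.72 ± 0.03 (SE, edgeR adjusted p = 2.1e-06), a fall of 39.5% and the largest of the set. It was -0.18 after the length correction (adjusted p = 0.00129) and -0.39 with FPKM-implied length (adjusted p = 3.1e-05). With principal transcript length Mki67 was instead higher, at 0.13 (adjusted p = 0.00662). Top2a, the topoisomerase that untangles sister DNA, gave 775, 736 and 736 CPM in wild type and 635, 631 and 631 CPM in Tespa1-/-. The groups did not overlap, and the log2 fold change of -0.24 ± 0.03 (adjusted p = 2.0e-04) turned to 0.25 after the length correction. Per unit length, on the FPKM scale as deposited, Mki67 ranked 1 and Top2a 3 of the 45 genes in wild type, at 82.1 and 72.3, and they ranked 4 and 3 in Tespa1-/-, at 46.3 and 56.9. Cdc20 moved from rank 2 (72.4) to rank 1 (94.8) and Ccnb2 from rank 4 (58.3) to rank 2 (72.6). These ranks hold only for the length that the deposited FPKM implies, which is not union exon length. For Cdc20 it was 2299 against 1868 bases, for Top2a 10734 against 9013 and for Mki67 10347 against 10061. For Ccnb2 it was 1531 bases by either length.

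In the role of mitotic kinases, which held Plk1, Aurka and Ttk, all 3 were higher, as were 31.5% of all genes tested. Kinases placed in other roles differed. Cdk1 was higher (0.30), and Aurkb (0.20, edgeR adjusted p = 0.254) and Bub1 (-0.05, adjusted p = 0.36) did not pass. Plk1 (ENSMUSG00000030867, GRCm38 chr7:122159439-122169873, plus strand), the polo-like kinase that acts at centrosomes and kinetochores, was read at 91.6, 73.9 and 81.1 CPM in wild type and at 128, 128 and 134 CPM in Tespa1-/-. No library of the groups overlapped, and the log2 fold change of 0.66 ± 0.08 (edgeR adjusted p = 2.4e-04), a rise of 58.4%, was the largest of the set. Aurka, the Aurora kinase of the spindle poles, rose from 60.5, 59.8 and 58.5 CPM to 89.1, 91.1 and 92.5 CPM (0.61 ± 0.04, adjusted p = 1.1e-05). Both were about as large after the length correction, at 0.56 for Plk1 and 0.55 for Aurka. Ttk, the checkpoint kinase Mps1, had a smaller rise of 0.19 ± 0.05 that did not pass with total-count scaling (0.09, adjusted p = 0.148).

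Cyclin B and its kinase were higher, and 1 activating phosphatase was lower. Ccnb1 and Ccnb2, the B-type cyclins, had log2 fold changes of 0.41 ± 0.06 and 0.42 ± 0.04, with no overlap between groups. Cdk1, the kinase they activate, was at 0.30 ± 0.09 (adjusted p = 0.0206), and it did not pass without wild-type library 1, without Tespa1-/- library 2 or without Tespa1-/- library 3 (adjusted p = 0.0674, 0.0597 and 0.0604), nor with total-count scaling (0.0881). Ccna2, the A-type cyclin of S phase and G2 and the most abundant gene of this role by CPM, was read at 202, 201 and 193 CPM in wild type and at 197, 215 and 210 CPM in Tespa1-/-. The groups overlapped, and its log2 fold change of 0.06 ± 0.04 did not pass (adjusted p = 0.225); the value was -0.04 with total-count scaling and 0.19 after the length correction. Cdc25b, a phosphatase that activates Cdk1, fell from 34.7, 36.3 and 36.0 CPM to 24.8, 25.4 and 25.5 CPM. Its log2 fold change of -0.50 ± 0.05 (adjusted p = 1.4e-04) remained at -0.41 after the length correction, at -0.35 with principal transcript length and at -0.34 with FPKM-implied length, and it was the 1 member lower in all 3. Cdc25c, its paralog, was at 0.19 ± 0.07 and did not pass (adjusted p = 0.0559).

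Among the 4 anaphase genes 3 were higher and 1 was lower, against 31.5% and 31.8% of all genes tested. Cdc20, the activator of the anaphase-promoting complex, was read at 155, 163 and 164 CPM in wild type and at 221, 244 and 212 CPM in Tespa1-/-. Every Tespa1-/- library was higher, by 0.49 ± 0.06 on the log2 scale (edgeR adjusted p = 2.2e-04), or 40.5%. Ube2c, the ubiquitin-conjugating enzyme of that complex, and Pttg1, which encodes securin, rose by 0.51 ± 0.04 and 0.43 ± 0.09, and Pttg1 did not pass with principal transcript length. Espl1, which encodes separase, the protease that securin holds in check, moved the other way, from 122, 131 and 133 CPM to 86.1, 82.8 and 84.2 CPM. The groups were well apart, and the log2 fold change was -0.61 ± 0.04 (adjusted p = 2.4e-05), yet it was -0.13 after the length correction, -0.22 with FPKM-implied length and 0.02 with principal transcript length.

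Spindle checkpoint genes were mixed. Bub3, the scaffold of the Bub kinases, rose by 0.43 ± 0.05, and Mad2l1, which encodes the Cdc20 inhibitor Mad2, by 0.18 ± 0.05, though Mad2l1 did not pass with total-count scaling (0.08, adjusted p = 0.185). Bub1b, which encodes BubR1, the most abundant of the 4 by CPM, was read at 182, 183 and 184 CPM in wild type and at 164, 159 and 163 CPM in Tespa1-/-. The replicates were close together and the groups apart, so a fall of 11.5% passed the test (log2 fold change -0.18 ± 0.03, edgeR adjusted p = 0.0015), but not after the length correction (-0.03). With principal transcript length Bub1b was at 0.07, and with FPKM-implied length it stayed lower, at -0.15 (adjusted p = 0.00417). Bub1 was at -0.05 ± 0.05 and did not pass, and it was at 0.10 after the length correction. With total-count scaling Bub1 was lower (-0.15, adjusted p = 0.0233).

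Within the NDC80 complex, the microtubule-binding rod of the kinetochore, 3 of 4 subunits were higher, as were 31.5% of all genes tested. Spc24 went from 53.5, 52.9 and 54.9 CPM to 84.4, 85.2 and 78.8 CPM, and its partner Spc25 from 28.9, 26.9 and 24.4 CPM to 36.9, 31.8 and 33.3 CPM. Neither overlapped between groups, at log2 fold changes of 0.62 ± 0.05 (edgeR adjusted p = 2.5e-05) and 0.35 ± 0.09 (adjusted p = 0.0103). Ndc80 rose from 43.7, 40.4 and 41.7 CPM to 49.2, 47.4 and 58.0 CPM (0.30 ± 0.08, adjusted p = 0.0162), where the third Tespa1-/- library was the highest. It did not pass without wild-type library 2 (adjusted p = 0.0526) or with total-count scaling. Nuf2, the partner of Ndc80, was read at 58.8, 59.8 and 56.6 CPM and at 60.4, 66.3 and 61.4 CPM, and did not pass (0.10 ± 0.05, adjusted p = 0.119). Differences between subunits were not tested. After the length correction the 4 values were 0.57 (Spc24), 0.36 (Spc25), 0.64 (Ndc80) and 0.43 (Nuf2). All 4 passed, as did 58.6% of all genes tested (36.3% as higher).

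Other centromere and kinetochore genes of the set went in both directions. Cenpe, the kinetochore kinesin and the most abundant of this role by CPM, was read at 143, 132 and 132 CPM in wild type and at 160, 149 and 154 CPM in Tespa1-/-. The ranges were next to each other without overlap, and the log2 fold change was 0.19 ± 0.05 (edgeR adjusted p = 0.0106), which did not pass with total-count scaling (0.08, adjusted p = 0.153) and was 0.66 after the length correction. Cenpf, a large coiled-coil protein of the outer kinetochore and the longest member at 15433 bases, fell from 126, 120 and 121 CPM to 87.8, 86.5 and 86.4 CPM. Its log2 fold change of -0.49 ± 0.04 (adjusted p = 2.5e-05) turned to 0.23 after the length correction and to 0.40 with principal transcript length. Cenpa, the centromeric histone H3 variant, was at -0.04 ± 0.08 and did not pass; it was at 0.04 without wild-type library 3 or without Tespa1-/- library 1, and at 0.25 after the length correction.

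Of the chromosomal passenger subunits, which correct wrong attachments and guide cytokinesis, Birc5 and Cdca8 were higher, and Incenp and Aurkb did not pass. Birc5, which encodes survivin, went from 73.4, 77.2 and 77.5 CPM to 117, 111 and 110 CPM, and Cdca8, which encodes borealin, from 114, 113 and 110 CPM to 163, 167 and 156 CPM. Both were clear of the wild-type range, at log2 fold changes of 0.57 ± 0.04 (edgeR adjusted p = 2.6e-05) and 0.53 ± 0.04 (adjusted p = 2.1e-05). Incenp, the scaffold, was read at 243, 249 and 262 CPM and at 248, 243 and 256 CPM, with full overlap (-0.01 ± 0.04, adjusted p = 0.79). Its direction hung on the scaling: it was lower with total-count scaling (-0.11, adjusted p = 0.0324) and higher after the length correction (0.14, adjusted p = 0.0142). Aurkb, the kinase of the complex, had 94.8, 104 and 99.1 CPM in wild type and 88.6, 138 and 117 CPM in Tespa1-/-. The first Tespa1-/- library lay below all wild-type libraries and the other two above them, and the gene did not pass (0.20 ± 0.14, adjusted p = 0.254). Without that library the log2 fold change of Aurkb was 0.36 (adjusted p = 0.0086).

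**Figure D4:**
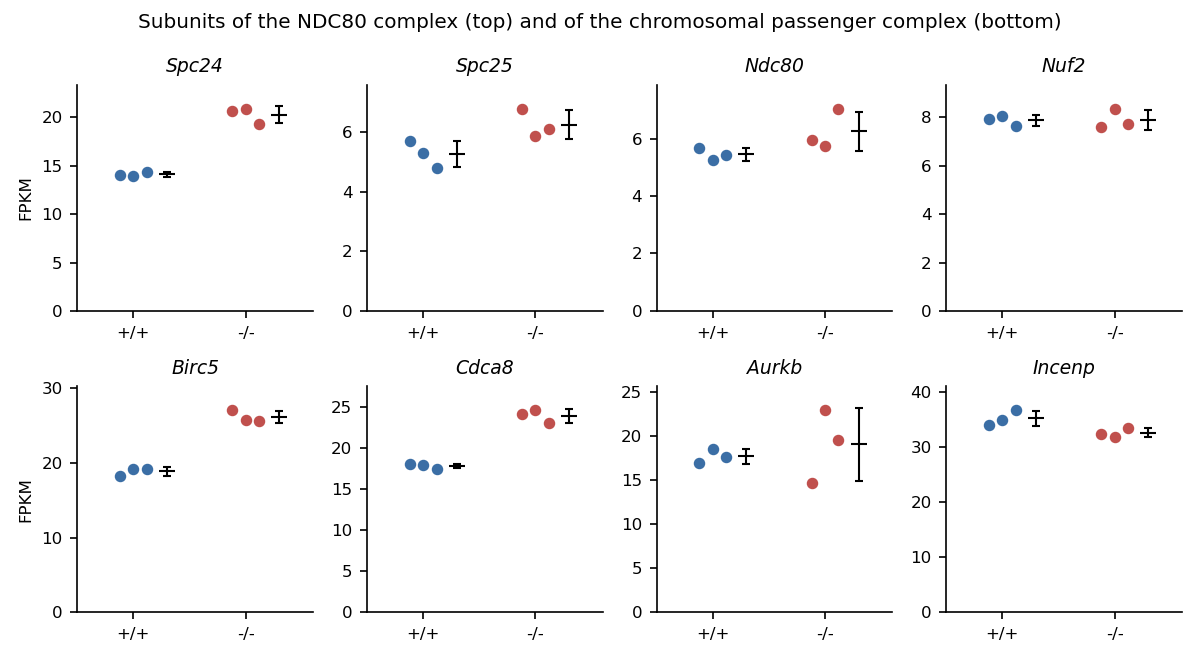
FPKM as deposited, without TMM scaling, of the 4 NDC80 subunits (top) and the 4 chromosomal passenger subunits (bottom) in each of the 3 Tespa1+/+ (blue) and 3 Tespa1-/- (red) libraries, with mean and SD beside them. Spc24, Birc5 and Cdca8 are clear of the wild-type range, while Nuf2 overlaps on this scale and Aurkb spreads from 14.7 to 22.9 in Tespa1-/-. Incenp, which overlaps in CPM, lies below the wild-type range in all 3 Tespa1-/- libraries on this scale.

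Kinesin motors held 4 of the 13 falls, and 1 rise, among 6 genes, where 31.8% of all genes tested were lower and 31.5% higher. Of the 4, Kif11, Kif15 and Kif23 are longer than 7000 bases, a length at which 64.7% of all genes were lower. Kif4 is in the class of 4000 to 7000 bases, where 39.4% were lower. Kif11, the plus-end motor Eg5 that pushes spindle poles apart and the most abundant kinesin of the set by CPM, was read at 217, 209 and 214 CPM in wild type and at 166, 161 and 165 CPM in Tespa1-/-. The groups were far apart against a spread of a few CPM, and the log2 fold change was -0.38 ± 0.03 (edgeR adjusted p = 3.7e-05), but 0.03 after the length correction and with principal transcript length. With FPKM-implied length Kif11 stayed lower, at -0.15 (adjusted p = 0.00381). Kif23, the midzone motor MKLP1, Kif15, which supports Eg5, and the chromokinesin Kif4 had log2 fold changes of -0.23 ± 0.04, -0.21 ± 0.04 and -0.20 ± 0.04. These became 0.21, 0.38 and 0.06 after the length correction. Kif4 stayed lower with FPKM-implied length (-0.11, adjusted p = 0.0449) but was higher with principal transcript length (0.23, adjusted p = 0.00172). Kif20a, the cytokinesis motor MKLP2, went up instead, by 0.30 ± 0.04 (adjusted p = 3.4e-04), and 0.45 after correction. Its exons overlap those of Cdc23 on the opposite strand over 29.3% of their length, so its count is uncertain if counting ignored the strand. Kif2c, the microtubule-depolymerising kinesin MCAK, was at 0.14 ± 0.06 and did not pass (adjusted p = 0.0838).

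Spindle assembly and cytokinesis genes gave 3 rises and 2 falls out of 7, against 31.5% and 31.8% of all genes tested. Tpx2, which activates Aurora A on the spindle and was the most abundant of these by CPM, went from 141, 145 and 151 CPM to 167, 162 and 164 CPM. The groups did not overlap, at a log2 fold change of 0.18 ± 0.04 (edgeR adjusted p = 0.00396), though Tpx2 did not pass with total-count scaling (0.08, adjusted p = 0.0968). Hmmr, a spindle pole protein, rose by 0.39 ± 0.05, and Dlgap5, a stabiliser of kinetochore fibres, by 0.13 ± 0.04 (adjusted p = 0.0244). The call of Dlgap5 was lost with DESeq2 (adjusted p = 0.182), total-count scaling (0.586), other filters, the replicate block and the FPKM fits. It was also lost without wild-type library 1, Tespa1-/- library 1 or Tespa1-/- library 3. Anln, the contractile ring protein anillin, fell by 0.33 on the log2 scale and Ect2, the activator of RhoA at the cleavage site, by 0.34, but they were at 0.17 and -0.09 after the length correction. Nusap1 and Prc1, 2 microtubule-bundling proteins, were at -0.04 ± 0.08 and 0.02 ± 0.14 and did not pass. Nusap1 was at 0.07 without wild-type library 1, and Prc1 at -0.17 (adjusted p = 0.0215) without Tespa1-/- library 2, in which it read 84.3 CPM against 59.2 and 58.1 CPM in the other two.

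Neither of the transcription factors known to switch these genes on passed as higher before the length correction. Mybl2 was read at 139, 145 and 146 CPM in wild type and at 146, 157 and 160 CPM in Tespa1-/-. The ranges met at their edges, and the log2 fold change of 0.11 ± 0.04 did not pass (edgeR adjusted p = 0.0623), though it did after the length correction (0.29). Foxm1 was at -0.21 ± 0.04 (adjusted p = 0.00335), a fall of 13.7% that was at 0.07 after the length correction. With principal transcript length Foxm1 was higher, at 0.17 (adjusted p = 0.0109).

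**Figure D5:**
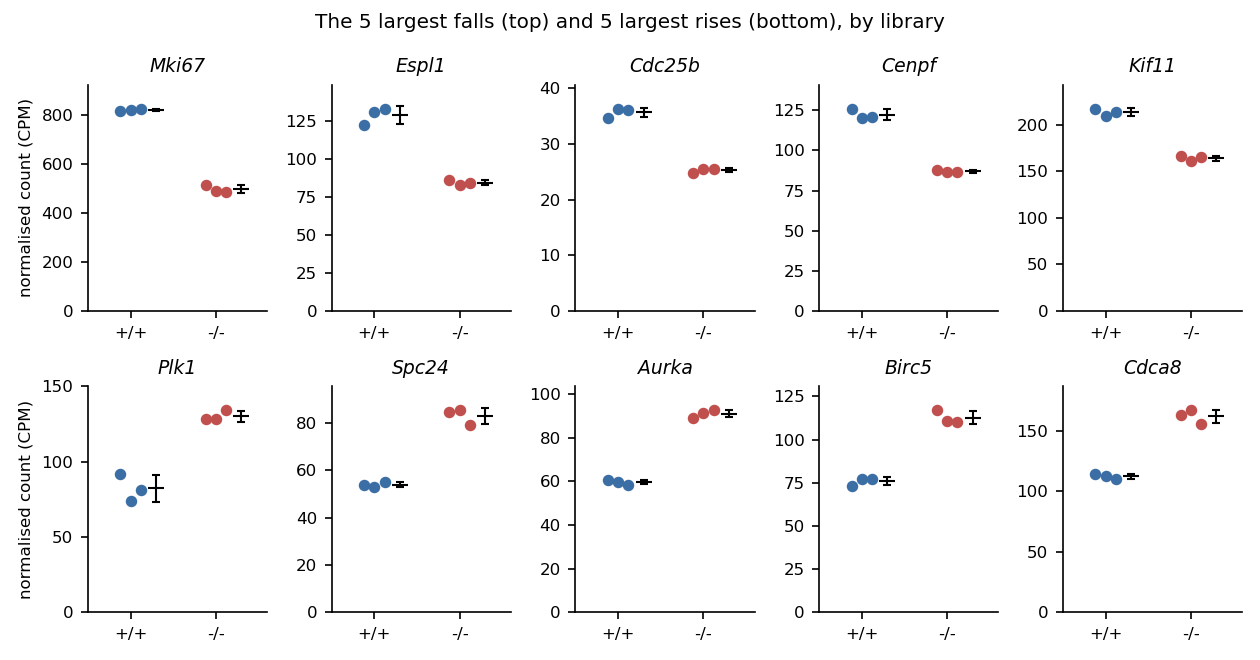
Normalised counts (CPM, axes from 0) of the 5 members with the largest falls (top) and the 5 with the largest rises (bottom) among those that passed the test, in 3 Tespa1+/+ (blue) and 3 Tespa1-/- (red) libraries, with mean and SD. In all 10, which were picked for large changes in these same libraries, the groups do not overlap, as in 69.1% of all genes tested. After the length correction Cenpf is at 0.23 and Kif11 at 0.03 instead of falling. With principal transcript length Mki67 is called higher, at 0.13, and Espl1 is at 0.02, while Mki67, Espl1 and Kif11 stay lower with FPKM-implied length.

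Related genes of cell division, in 5 lists with 137 genes in all, had 45 higher (32.8%) and 41 lower (29.9%), shares near those of all genes tested (31.5% and 31.8%), and a median log2 fold change of 0.00. The length correction left 74 higher (54.0%) and 16 lower (11.7%), against 36.3% and 22.2% of all genes. Among 36 other kinetochore and centromere genes 16 were higher (44.4%) and 5 lower (13.9%), with a median of 0.18. Cenpw, a histone-fold protein of the inner kinetochore, had a log2 fold change of 0.86 ± 0.07 and the spindle-binding Ska1 0.57 ± 0.09, while Kntc1, of the dynein-recruiting RZZ complex, was at -0.99 ± 0.05 and the scaffold Knl1 at -0.85 ± 0.07. After the length correction Kntc1 was at -0.55 and Knl1 at -0.38. Among 17 anaphase-promoting complex genes 9 were higher (52.9%) and 2 lower (11.8%), with a median of 0.11. The subunits Anapc10 and Anapc16 were at 0.87 ± 0.12 and 0.73 ± 0.06, and Anapc1 and Cdc27 at -0.62 ± 0.03 and -0.48 ± 0.05, which became 0.13 and -0.16 after the length correction.

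Of 20 condensin and cohesin genes 3 were higher (15.0%, against 31.5% of all genes) and 10 lower (against 31.8%), with a median of -0.17. After the length correction 10 of the 20 were higher (against 36.3%) and 1 lower (against 22.2%). The condensin subunit Smc4 was at 0.44 ± 0.05 and the cohesion factor Cdca5 at 0.40 ± 0.04, and Pds5a and Stag1, which work with cohesin, were at -0.73 ± 0.11 and -0.72 ± 0.05 before and at 0.07 and -0.10 after the length correction. In 36 other spindle, kinesin and cytokinesis genes 9 were higher (25.0%) and 15 lower (41.7%), with a median of -0.09. Tubg1, which encodes gamma-tubulin, was at 0.62 ± 0.07 and Tacc3 at 0.45 ± 0.04, whereas the spindle pole gene Aspm and the centriole gene Cep192 were at -0.96 ± 0.05 and -0.94 ± 0.04, and at -0.35 and -0.30 after correction. Among 28 mitotic entry and cell cycle transcription regulators 8 were higher (28.6%) and 9 lower (32.1%), near the shares of all genes. Cks1b and Cks2, the small Cdk-binding subunits, were at 0.81 ± 0.03 and 0.62 ± 0.04, and E2f3 and the kinase Mastl at -0.64 ± 0.06 and -0.59 ± 0.10, or -0.39 and -0.30 after the length correction.

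DNA replication genes, the group nearest in the cell cycle, gave 16 higher and 10 lower of 44 (36.4% and 22.7%, against 31.5% and 31.8% of all genes), with a median log2 fold change of 0.06 against 0.14 in the mitosis and spindle genes. After the length correction 32 were higher (72.7%) and 5 lower (11.4%), with a median of 0.24 against 0.35. Cdc45, of the replicative helicase, and Rrm2, a ribonucleotide reductase subunit, were at 0.61 ± 0.04 and 0.59 ± 0.03, and Pole and Pola1, the catalytic subunits of polymerases epsilon and alpha, at -0.96 ± 0.03 and -0.61 ± 0.05, or -0.37 and -0.12 after the length correction. Whether the mitosis and the replication genes differed was not tested.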

How the data were processed

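Per the labels, stranded libraries were prepared from poly-A RNA of the LSKs and read from both ends on a NovaSeq instrument. The submitters' processing notes name CASAVA 1.8, HISAT2, StringTie and edgeR with the build GRCm38; which of them counted reads, and whether by strand, is not given in the sources used here. The authors deposited whole-number counts per gene, not normalised, and FPKM values, which scale the same counts by gene length and library total. All 6 samples were mapped from their labels, and 0 columns were left unmapped.

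Counts were filtered with filterByExpr, scaled by TMM and put through the quasi-likelihood F-test of edgeR 4.0.16 (R 4.3.3), 3 libraries against 3 without covariates. P-values were adjusted over 15332 genes (Benjamini-Hochberg), and an adjusted p below 0.05 made a call. Folds over 1.5, the cutoff of the study, are given beside. SE is the log2 fold change divided by the root of F. FPKM entered only levels per length, the lengths of the FPKM-implied length correction and limma 3.58.1 fits. Those fits used log2(FPKM + 1) or log2(FPKM + 0.1) of the deposited FPKM, for genes at or above 1 FPKM in at least 3 samples. DESeq2 1.42.0, glmTreat, other scalings and filters, a replicate block and fits without 1 library were also run. The length correction subtracts a loess curve (span 0.5) of log2 ratio on union exon length (GENCODE M21, GRCm38) as an offset per library. Coordinates of all 45 members equalled the deposited ones. Scripts were tested on simulated data. The members and lists were chosen with earlier results of these data known.

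Members with per-library values were the 5 largest rises and 5 largest falls that passed, the most abundant of each role by CPM, and both complexes. From each related list the 2 largest rises and falls that passed were named. Promoters are those of the 6 most abundant members with a CHR hexamer. Members had counts of 206 or more in every library, so none lay near the floor. A count at or under 3 was taken as the floor, which covers counting error only. Exons of 13 members overlap another gene, most on the opposite strand.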

Additional observations from a re-analysis of the deposited data

How the results depend on the processing

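Of the 45 genes, 27 kept their direction and side of the threshold (13 higher, 13 lower and 1 not passed) under every alternative but the 1.5-fold test and the length corrections. Over all alternatives 0 did. The 1.5-fold test (glmTreat) called 0 members higher, also at an unadjusted p under 0.05, and 1 lower (Mki67). It left 4 higher and 9 lower of the other mitosis genes, and 0 (0 also unadjusted) and 1 of the DNA replication genes, of which edgeR without that bound called 16 and 10.

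Without 1 library at a time, 19 to 23 members were higher and 13 to 14 lower, with a median of 0.14 to 0.16, and other mitosis genes gave 43 to 47 and 39 to 41 and replication genes 14 to 17 and 9 to 10. Calls or directions changed for 11 members. Nusap1 reached 0.07, Cenpa 0.04, Incenp 0.03 and 0.01 (its lowest was -0.03), and Prc1 -0.17. Same-numbered libraries shared only a number by the labels, and their deviations correlated at 0.0459, 0.0107 and 0.0595, each sample best with its own number. The fit with the replicate block gave 22 higher and 13 lower: it gained Kif2c and Mybl2, lost Dlgap5 and put Prc1 at -0.0008. Requiring 10 counts in every sample put Prc1 at -0.01.

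Total-count scaling gave a median of 0.04, 62 other mitosis genes and 16 replication genes lower, Ccna2 at -0.04 and Prc1 at -0.08. The FPKM fits gave the same 16, 0.04 and -0.04, with Prc1 at -0.08 (-0.10 with a pseudocount of 0.1). Without a filter the FPKM fit called 13 members and 29 other mitosis genes higher. The cause was not tested.

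Length correction on union exon length gave a median of 0.35, with 34 members higher and 3 lower, 74 and 16 of the other mitosis genes, and 32 and 5 of the replication genes. Signs turned for Bub1 (0.10), Cenpa (0.25), Cenpf (0.23), Incenp (0.14), Kif4 (0.06), Kif11 (0.03), Kif15 (0.38), Kif23 (0.21), Nusap1 (0.09), Anln (0.17), Top2a (0.25) and Foxm1 (0.07). With principal transcript length, added after seeing the data, the median was 0.25, with 32 members higher and 1 lower, and 7 other mitosis and 2 replication genes lower. Signs turned for Bub1 (0.16), Bub1b (0.07), Espl1 (0.02), Cenpf (0.40), Incenp (0.20), Kif4 (0.23), Kif11 (0.03), Kif15 (0.21), Nusap1 (0.18), Anln (0.05), Mki67 (0.13), Top2a (0.22) and Foxm1 (0.17). With the length implied by the FPKM, also added later, the median was 0.31, with 32 and 6 members, 72 and 24 other mitosis genes, and 28 and 4 replication genes. Signs turned for Bub1 (0.004), Cenpa (0.27), Cenpf (0.09), Incenp (0.18), Kif15 (0.35), Kif23 (0.12), Nusap1 (0.08), Top2a (0.10) and Foxm1 (0.07).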
